A study of Mus musculus with 3 samples.

Results

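The 9 chemokine receptor genes Ccr1, Ccr2, Ccr7, Cx3cr1, Cxcr2, Cxcr4, Cxcr6, Ackr3 and Xcr1 were chosen by name from the 21507 genes that the cell and nucleus tables of this mouse lung series share, and all 9 had counts in every library. The series holds 1 library of dissociated cells and 2 libraries of isolated nuclei, all from wild type C57Bl/6J mice. The cells came from fresh lung that was digested for 30 min at 37 C with collagenase and DNAse, dissociated on a GentleMacs and cleared on an Optiprep gradient. The nuclei came from snap-frozen adult lung that was lysed in Nuclei EZ Lysis buffer and passed through filters of 40 and 5 micron. Both were sequenced with the 10x Chromium 3' v3 assay, in which each captured transcript is counted as a unique molecular identifier (UMI). Preparation and fresh or frozen tissue differed together between the groups and cannot be told apart. No label ties a library to an animal. The cells have 1 library, so each p-value rests on the spread between the 2 nucleus libraries and on spread shared across genes. Variation among cell preparations was not measured, and part of the spread between the nucleus libraries may be technical.

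Chemokines are small secreted proteins that bind receptors that span the membrane on leukocytes and on the cells of vessels, and a bound receptor signals through inhibitory G proteins to steer migration. Most of the receptors each mark a distinct migratory population, from monocytes leaving the bone marrow to dendritic cells travelling to lymph nodes. Atypical receptors such as the product of Ackr3 bind chemokine without classical G protein signalling and take it up for degradation, which shapes the gradients that other cells read. In the lung these receptors govern the entry and placement of monocytes, macrophages, dendritic cells, lymphocytes and neutrophils.

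The cell library held 11934 barcodes with a median of 2864 UMIs, and the nucleus libraries held 6849 and 9806 barcodes with medians of 4152 and 2521 UMIs. Types were set by marker genes that include none of the chemokine receptors. Leukocyte clusters held 6597 cells, against 968 and 1738 nuclei in nucleus replicates 1 and 2. Endothelial clusters held 2745 cells, against 2563 and 1918 nuclei, mixed clusters within either compartment included. Of all barcodes used, 1367 cells and 35 and 150 nuclei lay in clusters that carried markers of more than 1 type or lineage, or haemoglobin genes, or that kept no name, and were set aside. Pairs of libraries shared between 21 and 24 barcodes. No neutrophil or basophil cluster formed among the nuclei, and the nuclear monocytes did not split into classical and non-classical ones.

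Several types were less clean than their names. The neutrophil cluster of the cell library carried all 9 of its own markers, at a summed 11877 CPM (a gene's UMIs over all UMIs of the type in that library, scaled to the same total for every type), but also 2224 CPM of the classical and 2014 CPM of the non-classical monocyte list, against 2788 and 1711 CPM in the monocytes. Interstitial macrophages among the nuclei carried 1860 and 1787 CPM of the classical monocyte list in replicates 1 and 2, against 404 CPM in the cells, where the interstitial macrophage list reached 8030 CPM, against 1330 and 1236 CPM in the nuclei. RNA of club cells, the secretory cells of the airway, reached every type, at 1580 CPM of its list in monocytes of the cell library, against 25221 and 36422 CPM in the nuclear monocytes. The part of these other cells' transcripts in the receptor levels was not tested. Each level below is therefore read beside that of alveolar type 2 (AT2) epithelium, which holds 482 cells and 1347 and 1607 nuclei and is not a usual source of leukocyte receptors. AT2 is a point of comparison and not a floor. In the cell library, alveolar macrophages had 5.65 CPM of Ackr3, against 32.0 CPM in AT2, and 17.8 CPM of Ccr7, against 32.6 CPM.

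In the GENCODE annotation of mm10, 4 of the receptors lie close together on chromosome 9, namely Cxcr6 at chr9:123806475-123811760, Xcr1 at chr9:123852315-123862029, Ccr1 at chr9:123962124-123968692 and Ccr2 at chr9:124101950-124113557. Cxcr6 lies on the plus strand inside Fyco1, a gene of the minus strand, without overlap of exons. Cxcr2 lies at chr1:74153989-74161246, Ackr3 at chr1:90203980-90216751, Cxcr4 at chr1:128588199-128592293 and Ccr7 at chr11:99144196-99155077. The last member, Cx3cr1, has the widest model of the 9, 168264 bases at chr9:119901616-120069879, which spans several other genes.

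**Figure D1:**
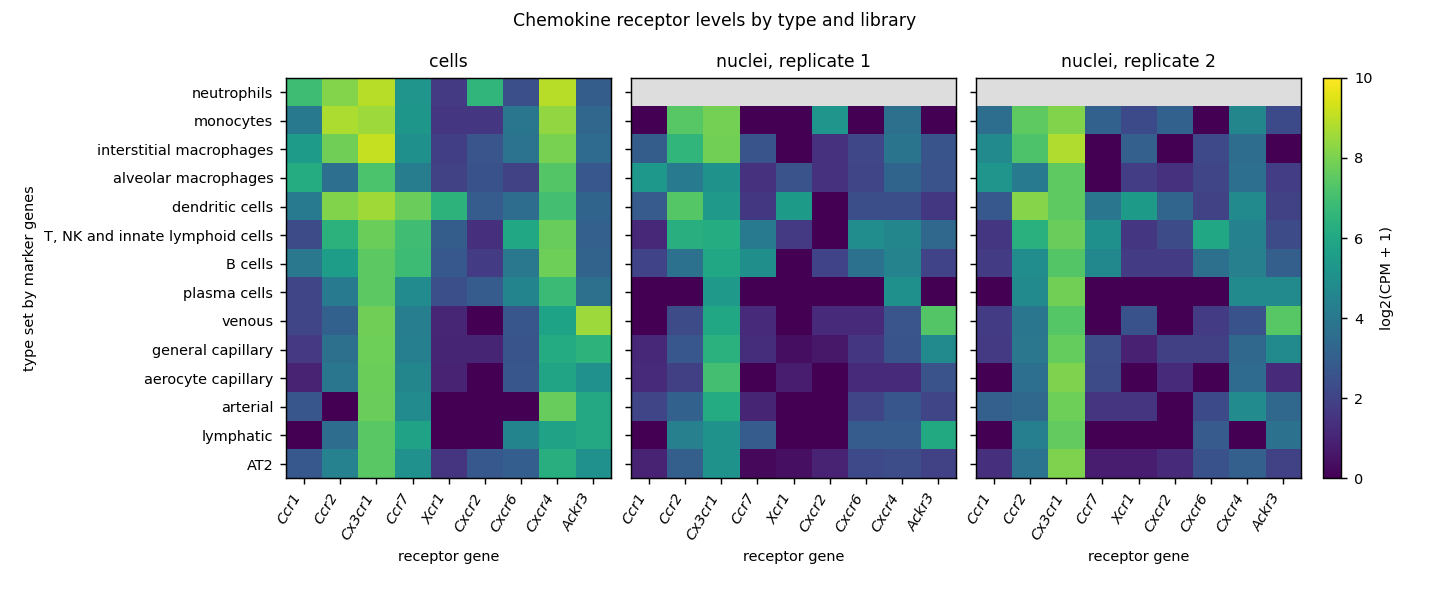
Level of the 9 receptor genes, as log2(CPM + 1) on the colour scale, in each type (rows) of the cell library and of both nucleus libraries; grey marks neutrophils, which formed no cluster among the nuclei. Monocytes lead for Ccr2 in cells, dendritic cells for Xcr1 and venous endothelium for Ackr3, while the column of Cx3cr1 is bright in every type, AT2 included.

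Among the receptors for inflammatory CC chemokines, Ccr2 was a receptor of monocytes, dendritic cells and interstitial macrophages. Ccr2, which binds Ccl2 and drives the exit of monocytes from bone marrow, stood at 440 CPM in monocytes of the cell library, against 168 and 182 CPM in the nuclear monocytes of replicates 1 and 2. In AT2 it stood at 20.5 CPM in cells, against 7.15 and 12.8 CPM in nuclei. Dendritic cells had 275 CPM of Ccr2 in cells, against 163 and 288 CPM in nuclei, so that monocytes came first in the cells and in nucleus replicate 1, and dendritic cells in nucleus replicate 2. Interstitial macrophages followed with 228 CPM in cells, against 95.7 and 147 CPM in nuclei, and the neutrophil cluster of the cells, with its monocyte transcripts, had 284 CPM, or 144 CPM where neutrophils were gated by marker UMIs. Alveolar macrophages, which clear particles and surfactant from the airspace, lay near AT2 with 11.6 CPM in cells, against 16.6 and 16.5 CPM in nuclei.

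The finer types of the cell library separated Ccr2 further. Classical monocytes had 735 CPM of Ccr2 (exact Poisson 95% interval 691 to 781), and non-classical monocytes, the patrolling kind, had 95.9 CPM (77.3 to 118), with no overlap of the intervals. Conventional dendritic cells of type 1 and type 2 had 342 (303 to 385) and 315 CPM (280 to 354), which overlapped. Group 2 innate lymphoid cells followed with 249 CPM (194 to 314), plasmacytoid dendritic cells with 144 CPM (98.7 to 204) and natural killer (NK) cells with 92.8 CPM (69.3 to 122). Migratory dendritic cells, which leave tissue for the lymph node, held 5 UMIs of Ccr2, 20.6 CPM (6.70 to 48.2), a level whose interval includes that of AT2. After thinning every barcode to 1000 UMIs, 50.7% of 554 classical monocytes held a UMI of Ccr2 (46.5 to 55.0, exact binomial), against 2.28% of 482 AT2 cells (1.15 to 4.05), with median depths of 2326 and 3212 UMIs. These intervals, like all others here, cover counting error only.

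The level of Ccr1, a receptor for Ccl3, Ccl5 and related ligands, was highest in phagocytes. In the cell library Ccr1 reached 119 CPM in neutrophils (89.3 to 156), 71.6 CPM in alveolar macrophages (65.5 to 78.1) and 44.0 CPM in interstitial macrophages (25.7 to 70.5). Only the last 2 of these intervals overlap. In the nuclei, alveolar macrophages came first in both libraries, with 39.8 and 36.4 CPM of Ccr1. AT2 had 5.76 CPM in cells, against 1.02 and 1.51 CPM in nuclei. Ccr1 parted the monocytes in the same order as Ccr2, with 27.3 CPM in classical (19.3 to 37.5) and 3.16 CPM in non-classical monocytes (0.652 to 9.24). The 16 cells named basophils or mast cells held 8 UMIs of Ccr1, too few to place them in the order.

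Cxcr2, which binds Cxcl1, Cxcl2 and Cxcl5 and recruits neutrophils, was highest, among types with more than 30 cells, in the neutrophil cluster of the cell library. There it reached 94.5 CPM (68.1 to 128), from 42 UMIs in 155 cells. The basophils or mast cells held 6 UMIs, 111 CPM (40.7 to 241), which overlaps with the neutrophils. Every other broad leukocyte or endothelial type of the cells had at most 6.55 CPM of Cxcr2, beside 5.76 CPM in AT2, and of the finer types plasmacytoid dendritic cells had 18.0 CPM from 4 UMIs. Nuclei held 24 and 38 UMIs of Cxcr2 in whole libraries, and 3 of those of replicate 1 fell in its 31 monocytes. The 7 UMIs of Cxcr2 in monocytes of the cell library gave 1.96 CPM, against 14.4 CPM from 5 UMIs in the monocyte nuclei of both replicates pooled, a ratio of 0.136 (exact 95% interval of the counts 0.037 to 0.544). Cxcr2 passed the filter on low counts in none of the 11 types tested, and without the filter edgeR called it in none of the 9 in which it had counts, with no unadjusted p under 0.05 (in monocytes a log2 fold of −2.24, SE 1.47, edgeR adjusted p = 0.58).

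Xcr1 was highest in dendritic cells in all libraries, and Ccr7 in those of the cell library only, each in a different kind. Xcr1, the receptor for Xcl1 on cross-presenting dendritic cells, had 217 CPM in type 1 conventional dendritic cells of the cell library (186 to 251), against 49.2 CPM (28.1 to 79.9) and 68.1 CPM (38.1 to 112) in nucleus replicates 1 and 2. Type 2 conventional dendritic cells had 10.0 CPM in cells (4.58 to 19.0), against no UMI among 36 and 35 nuclei. AT2 had 1.92 CPM of Xcr1 in cells, against 0.340 and 0.756 CPM in nuclei. The type 1 dendritic cells thus held the top level of Xcr1 among the conventional dendritic cells of every library. A share of 19.2% of the 224 cells held a UMI of Xcr1 at 1000 UMIs (14.3 to 25.0), against 0 of 482 AT2 cells. The latter allows a share of up to 0.622% by a floor of 3 counts of the total, or 0.762% by the exact binomial interval.

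Ccr7, the receptor for Ccl19 and Ccl21 that leads dendritic cells and naive lymphocytes into lymph nodes, stood at 1445 CPM in migratory dendritic cells of the cell library (1297 to 1604). This came from 350 UMIs in 66 cells, and 69.7% of them held a UMI at 1000 UMIs (57.2 to 80.4), against 3.94% of AT2 cells (2.39 to 6.09), with median depths of 3697 and 3212 UMIs. Migratory dendritic nuclei were 2 and 16 in replicates 1 and 2, and held 1 and 5 UMIs of Ccr7. T cells followed with 174 CPM in cells (153 to 197), against 35.6 and 49.0 CPM in nuclei, and then B cells with 114 CPM in cells (92.6 to 139), against 30.3 and 24.1 CPM in nuclei. Among the broad types of the nuclei, B cells came first in replicate 1. In replicate 2 the T, NK and innate lymphoid group came first with 31.6 CPM. Dendritic nuclei of all kinds had 2.12 and 14.4 CPM. AT2 had 32.6 CPM of Ccr7 in cells, against 0.170 and 0.756 CPM in nuclei. Other types of the cell library lay near that level, such as alveolar macrophages with 17.8 CPM, general capillary cells with 18.7 CPM and monocytes with 38.1 CPM.

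**Figure D2:**
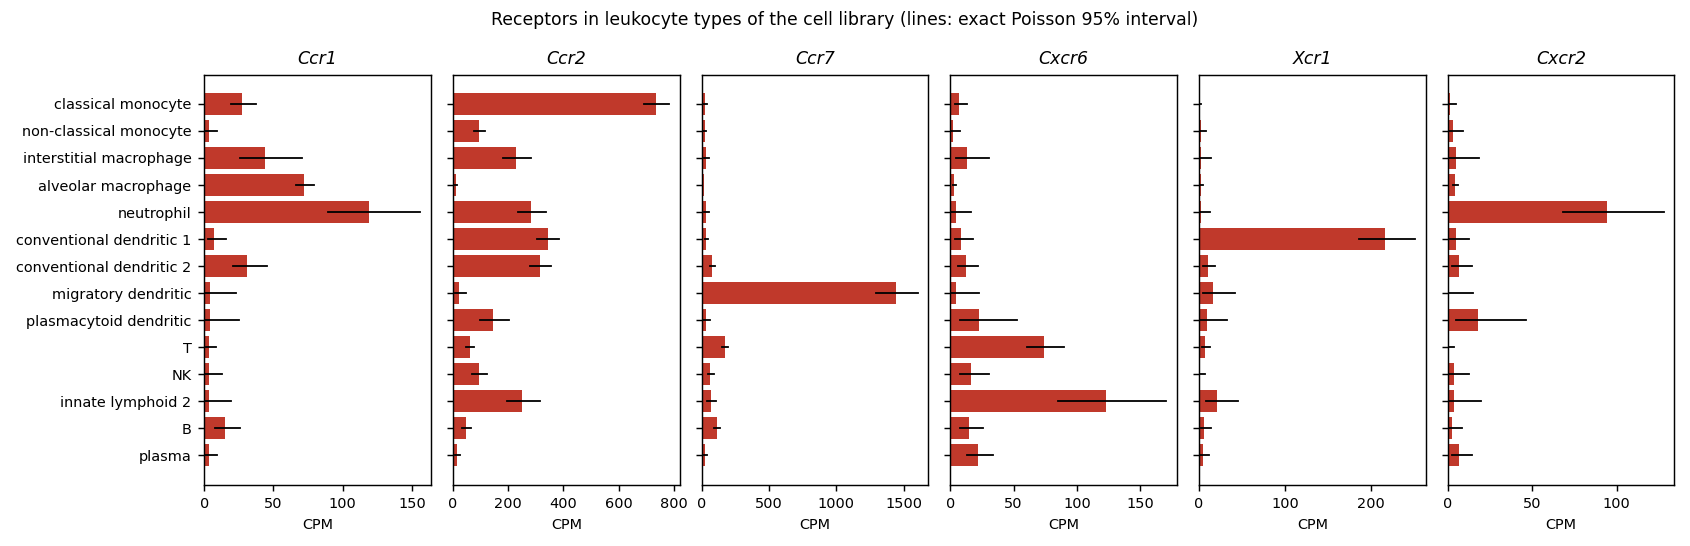
Level of 6 receptors in the finer leukocyte types of the cell library, in CPM on axes that start at 0 and differ between panels; lines are exact Poisson 95% intervals. Ccr2 is highest in classical monocytes (735 CPM), Ccr7 in migratory dendritic cells (1445 CPM), Xcr1 in type 1 conventional dendritic cells (217 CPM) and Cxcr6 in group 2 innate lymphoid cells (122 CPM).

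Cxcr6, the receptor for the membrane-bound ligand Cxcl16 on tissue-resident lymphocytes, was a receptor of the T, NK and innate lymphoid group. This group had 62.0 CPM of Cxcr6 in cells, against 28.5 and 61.2 CPM in nuclei, and came first in all 3 libraries. In the cell library, group 2 innate lymphoid cells had 122 CPM (85.4 to 170) and T cells 74.0 CPM (60.6 to 89.5), which overlap. NK cells had 16.0 CPM (7.34 to 30.5). AT2 had 7.04 CPM in cells, against 3.58 and 4.79 CPM in nuclei. Among the 568 T cells, Ccr2 and Cxcr6 were found together in 22 barcodes, where the product of their shares gives 10.1, and Ccr2 and Ccr7 in 8, where it gives 20.3. Both are counts within 1 library and carry no test.

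Cxcr4 and Ackr3 both bind Cxcl12. In the cell library most UMIs of Cxcr4 lay in leukocytes and most of those of Ackr3 in endothelium. Cxcr4, which retains leukocytes where Cxcl12 is made, was present across leukocytes. Leukocyte clusters held 74.5% of its UMIs in the cell library, where 6597 of 11934 barcodes were leukocytes, against 29.4% and 26.6% in nucleus replicates 1 and 2, where 968 of 6746 and 1738 of 9588 were. It stood at 486 CPM in neutrophils (424 to 556), 453 CPM in non-classical (411 to 498) and 275 CPM in classical monocytes (248 to 304) of the cells. Non-classical monocytes, low in Ccr2, were thus the higher of both monocyte types in Cxcr4, and did not differ from the neutrophil cluster beyond the intervals. That cluster carried monocyte transcripts, and its level of Cxcr4 was lower where neutrophils were gated by marker UMIs, as given below. Interstitial macrophages had 251 CPM, B cells 219 CPM, the T, NK and innate lymphoid group 204 CPM and alveolar macrophages 157 CPM of Cxcr4 in the cells. AT2 had 75.5 CPM in the cells. General capillary cells with 69.6 CPM, aerocyte capillary cells with 56.0 CPM, venous cells with 55.5 CPM and lymphatic cells with 53.8 CPM did not exceed it, and among endothelial types only arterial cells did, with 201 CPM (142 to 277). Pericytes, the mural cells of capillaries, also lay above AT2, with 192 CPM of Cxcr4 in cells (172 to 214), against 13.6 and 28.4 CPM in nuclei. In nucleus replicates 1 and 2, endothelial clusters held 29.4% and 22.6% of the UMIs of Cxcr4, and epithelial clusters 19.4% and 33.7%. Among leukocyte and endothelial nuclei, plasma cells came first in replicate 1 with 31.1 CPM, and arterial endothelium in replicate 2 with 27.6 CPM. Over both replicates these types held 4 and 20 UMIs of Cxcr4.

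Endothelial clusters held most UMIs of Ackr3, at 65.0% in cells, against 80.4% and 51.7% in nucleus replicates 1 and 2. Outside the leukocytes and endothelium, adventitial fibroblasts had 114 CPM in cells, and mesothelial nuclei 27.6 and 29.4 CPM. Venous endothelium had 369 CPM of Ackr3 in cells (330 to 410), against 158 CPM (131 to 189) and 168 CPM (131 to 212) in nucleus replicates 1 and 2, and came first among leukocyte and endothelial types in all 3 libraries. General capillary cells had 88.3 CPM in cells, against 25.7 and 26.1 CPM in nuclei. Arterial cells had 65.2 CPM in cells, against 3.22 and 9.21 CPM in nuclei, and lymphatic cells 64.5 CPM in cells, against 65.7 and 12.5 CPM in nuclei. In the cell library the intervals of general capillary (77.6 to 100), arterial (33.7 to 114) and lymphatic cells (23.7 to 140) overlapped, so these neighbours did not differ beyond counting error. Aerocyte capillary cells, the thin capillary cells of gas exchange, had 32.6 CPM in cells, against 4.82 and 1.28 CPM in nuclei, the level of AT2 with 32.0 CPM in cells, against 2.89 and 2.77 CPM in nuclei. Leukocytes were low, with at most 12.0 CPM in any broad leukocyte type of the cells, beside 27.1 CPM from 6 UMIs in plasmacytoid dendritic cells. At 1000 UMIs, 29.1% of 323 venous cells held a UMI of Ackr3 (24.2 to 34.4), against 3.94% of AT2 cells. In the nuclei it was 14.9% and 17.4% of venous nuclei, against 0.223% and 0.317% of AT2 nuclei.

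**Figure D3:**
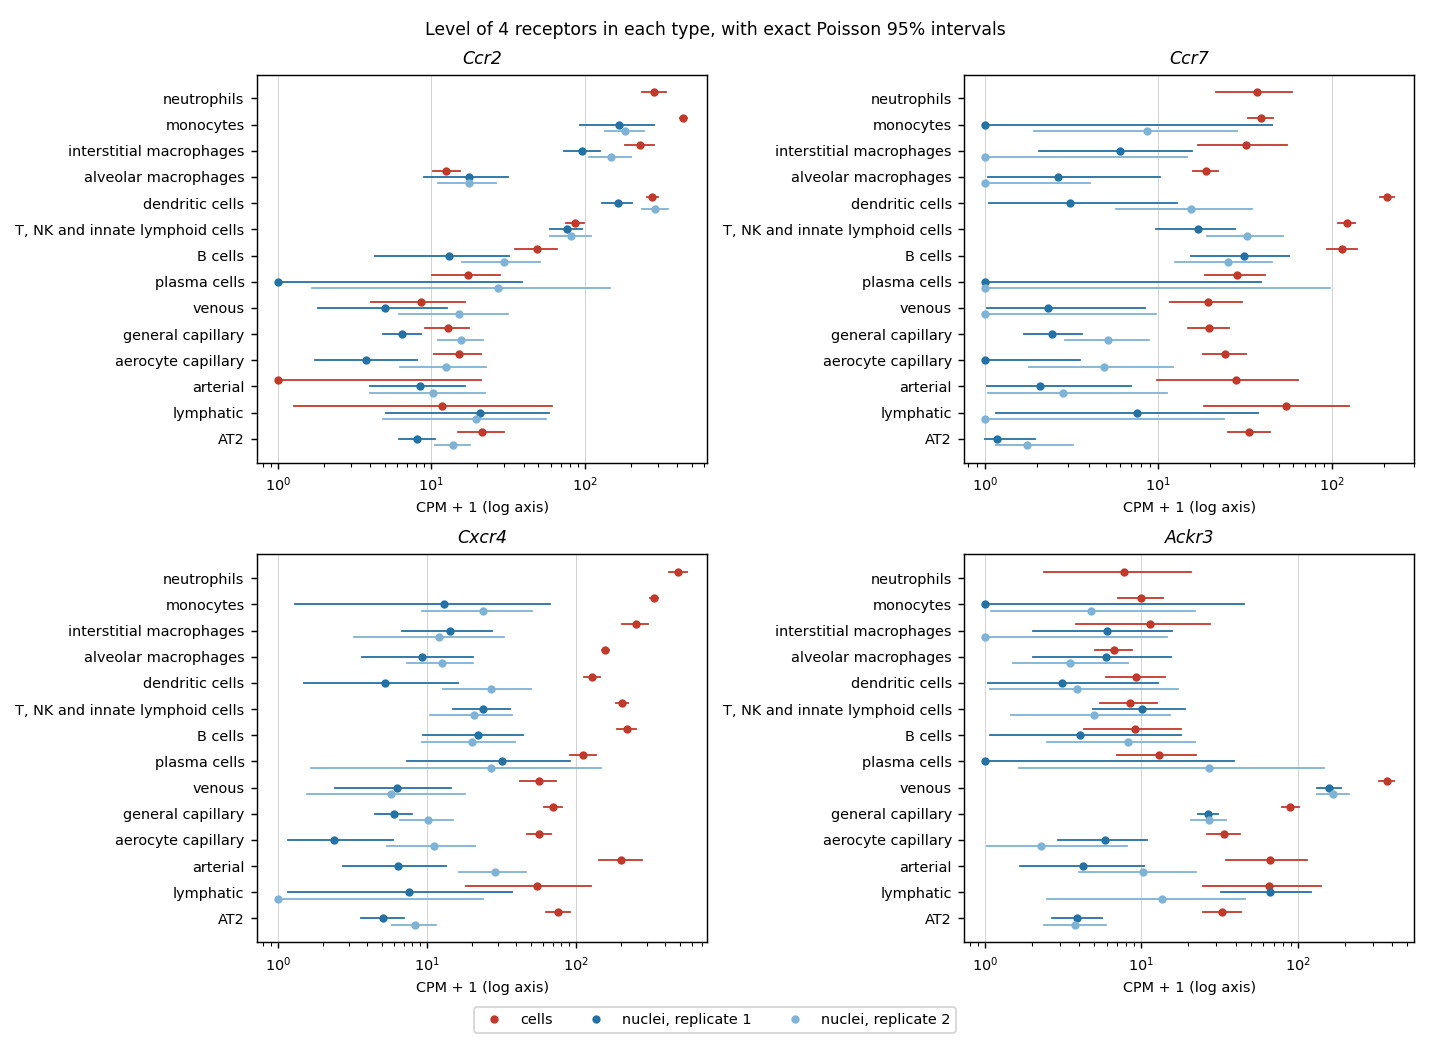
Level of Ccr2, Ccr7, Cxcr4 and Ackr3 in each type, as CPM + 1 on a log axis, for cells (red) and both nucleus replicates (blue); lines are exact Poisson 95% intervals. For Cxcr4 the point of the cells lies to the right of both nucleus points in every type with all 3 libraries, AT2 included, while for Ccr2 the points lie close together in several types.

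The promoters of Cxcr4 and Ackr3 are printed because these receptors share a ligand, and because they were the only 2 among 8 member promoters in the RefSeq table to hold the letters TATAAAA, on either strand, within 250 bases before and 50 after the start. Of 32851 promoters in the table (GRCm38.p6), 5.48% held TATAAAA. The capitals mark it, and in Cxcr4 the capitals also cover a match on the other strand that overlaps the first. Cxcr4 is at chr1:128592250-128592549 on the minus strand and Ackr3 at chr1:90203730-90204029 on the plus strand, both written 5′ to 3′.
Cxcr4: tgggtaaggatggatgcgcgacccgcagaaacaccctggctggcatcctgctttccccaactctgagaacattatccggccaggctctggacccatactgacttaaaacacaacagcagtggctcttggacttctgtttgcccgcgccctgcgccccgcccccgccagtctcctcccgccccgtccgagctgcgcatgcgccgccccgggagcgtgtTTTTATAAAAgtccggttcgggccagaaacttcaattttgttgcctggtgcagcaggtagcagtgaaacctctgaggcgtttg
Ackr3: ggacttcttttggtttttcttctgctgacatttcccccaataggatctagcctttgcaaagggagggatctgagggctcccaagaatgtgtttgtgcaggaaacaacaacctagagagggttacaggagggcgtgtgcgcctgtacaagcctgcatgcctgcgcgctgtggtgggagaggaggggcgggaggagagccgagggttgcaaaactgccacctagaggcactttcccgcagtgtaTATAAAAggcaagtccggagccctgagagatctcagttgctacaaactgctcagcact
The match begins 30 bases before the start in Cxcr4 and 8 bases before it in Ackr3. None of the 8 promoters held TGANTCA, a form of the AP-1 motif present in 7.81% of all promoters, TGACGTCA (1.79%), GAGGAAG (13.6%) or the NF-kB motif (0.155%), searched on both strands. These are matches of letters and say nothing of binding. Ccr7 was named only.

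Of the ligands, Cxcl12, Ccl21a and Cxcl16 are given as examples. Cxcl12 was highest in arterial endothelium, with 489 CPM in cells, against 406 and 175 CPM in nuclei, followed by adventitial fibroblasts with 454 CPM in cells, against 156 and 136 CPM in nuclei. Arterial cells also held its receptor Cxcr4, and adventitial fibroblasts its receptor Ackr3, at 114 CPM in the cells. Ccl21a, a ligand of Ccr7, had 1086 CPM in lymphatic endothelium of the cells, against 105 and 150 CPM in nuclei. Cxcl16 led in interstitial macrophages with 290 CPM in cells, against 108 and 121 CPM in nuclei. Near-identical copies of Ccl21a could split reads with it, so its level is uncertain.

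Cx3cr1, the receptor for the membrane-bound ligand Cx3cl1 on monocytes and tissue macrophages, could not be read like the other members. Among leukocytes and endothelium, interstitial macrophages had 557 CPM in cells, against 235 and 449 CPM in nuclei, and came first in the cells and in nucleus replicate 2. In nucleus replicate 1 monocytes came first with 239 CPM, within the counting error of the interstitial macrophages. In the cell library neutrophils had 486 CPM, non-classical monocytes 413 CPM and classical monocytes 363 CPM. Type 2 conventional dendritic cells had 537 CPM (490 to 587), against 250 CPM (217 to 287) in type 1 cells. But every other type also had counts, and AT2 had 172 CPM in cells, against 33.2 and 265 CPM in nuclei. Ciliated cells of the airway had 645 CPM in cells, against 456 and 737 CPM in nuclei, above the interstitial macrophages in all 3 libraries. Alveolar type 1 (AT1) cells had 204 CPM in cells, against 31.5 and 716 CPM in nucleus replicates 1 and 2.

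A single GENCODE transcript of Cx3cr1 stretches its model over the same-strand genes Gorasp1, Csrnp1 and Xirp1, and over the opposite-strand genes Wdr48 and Ttc21a. Gorasp1, Csrnp1 and Xirp1 have no row among the genes that the cell and nucleus tables share, whereas Wdr48 and Ttc21a have one each. Among protein-coding genes that lie inside a longer gene on the same strand, 2 of 369 had a row in the tables, or 0.542%, against 363 of 538 nested on the opposite strand, or 67.5%, and 16773 of 21004 not nested, or 79.9%. Whether the tables were counted over this model is not given in the sources used here. Reads of same-strand genes inside it and reads of Cx3cr1 itself cannot be told apart in these counts, so each level of Cx3cr1 is that of its row and may not be of Cx3cr1 alone. The nucleus replicates also differed from each other by more than for any other member, with 64.8 and 354 CPM over the whole library.

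**Figure D4:**
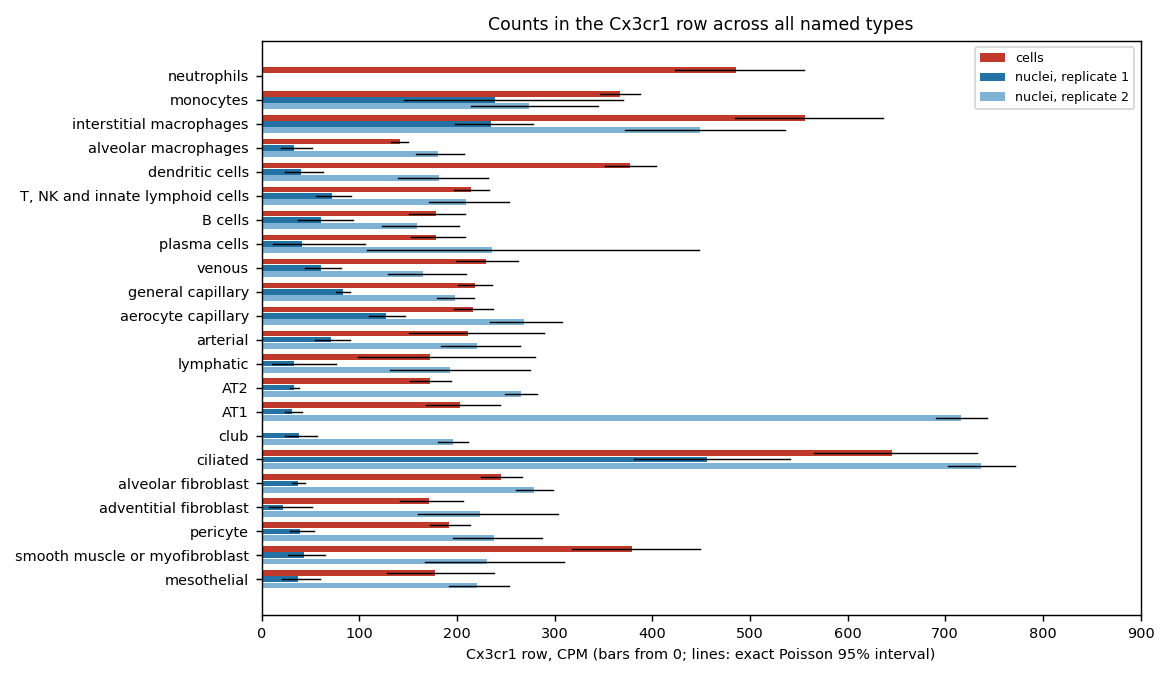
Counts of Cx3cr1 in every named type, in CPM on an axis from 0, for cells (red) and both nucleus replicates (blue); lines are exact Poisson 95% intervals and a missing bar is a type without a cluster in that preparation. Ciliated cells have the longest bars, 645 CPM in cells and 456 and 737 CPM in nuclei, and AT1 is high only in nucleus replicate 2 (716 CPM).

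Over whole libraries, 8 of the 9 receptors were higher in cells than in nuclei and none was lower. Cxcr4 had 159 CPM in cells, against 5.78 and 7.57 CPM in nuclei, a log2 fold of 4.75 (SE 0.32, adjusted p = 0.0016, edgeR quasi-likelihood test with Benjamini-Hochberg adjustment over 19727 genes). Ccr7 had 51.7 CPM in cells, against 1.70 and 2.66 CPM in nuclei, with a log2 fold of 4.75 (SE 0.37). Ccr1 had 23.8 CPM in cells, against 2.20 and 3.81 CPM in nuclei, and Ccr2 had 95.5 CPM in cells, against 13.5 and 20.3 CPM in nuclei. The smallest called log2 fold was that of Ackr3, 1.69 (SE 0.39, edgeR adjusted p = 0.023), with 35.6 CPM in cells, against 14.6 and 10.0 CPM in nuclei. In each of the 8 the cell value lay above both nucleus values. Of all genes tested, 16.9% were called higher and 9.1% lower in cells. The median log2 fold of the members was 2.65 and that of all genes −0.02. Whole libraries hold more leukocytes among cells than among nuclei, and fewer cells of a type and less RNA per cell cannot be told apart in these sums.

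The whole-library values of the other receptors called were in the same direction. Cxcr2 had 6.40 CPM in cells, against 0.867 and 1.45 CPM in nuclei, Xcr1 had 7.81 CPM in cells, against 1.23 and 1.90 CPM in nuclei, and Cxcr6 had 14.1 CPM in cells, against 3.69 and 4.91 CPM in nuclei. Cx3cr1 was not called, with 240 CPM in cells, against 64.8 and 354 CPM in nuclei, and a log2 fold of 0.42 (SE 0.80, edgeR adjusted p = 0.72). Its direction rested on the library, at −0.32 without nucleus replicate 1 and 1.96 without nucleus replicate 2. The 20 ligands of the members had 19 tested, 13 higher and none lower, with a median log2 fold of 4.75, among them Cxcl2 at 9.88 and Ccl3 at 8.02. Of 15 other chemokine receptors 12 were tested, 4 were higher and none lower, with a median of 1.31, among them Ccrl2 at 3.27, Cxcr3 at 4.26 and Cxcr1, which had 38 UMIs in cells and none in nuclei and was at least 19-fold higher in cells, against a floor of 3 counts over both nucleus libraries. Of 22 genes of receptor signalling and desensitisation 10 were higher and none lower, with a median of 1.04, among them the desensitising regulator Rgs1 at 6.01 and the GTPase Rac2 at 4.39.

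Within types, 11 types had at least 30 barcodes in each library, and 49 of the 99 pairs of receptor and type passed the filter on low counts. Of these 49, 28 were higher in cells by the edgeR test within the type and none was lower. The log2 fold was above 0 in 47 of them, with a median of 1.74. DESeq2 called 13 of the 49, of which 9 were for Cxcr4, 3 for Ccr7 and 1 for Ackr3. Pairs pass this filter more readily where the cells are high, so the counts describe the pairs tested and not all 99.

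Cxcr4 was higher in cells in all 10 types in which it was tested, by log2 folds between 3.39 in general capillary cells and 4.57 in interstitial macrophages. In monocytes it had 335 CPM in cells, against 12.0 and 22.8 CPM in nuclei, a log2 fold of 4.51 (SE 0.68, edgeR adjusted p = 4.5e-06). In alveolar macrophages the log2 fold was 4.40 (SE 0.37), from 157 CPM in cells, against 8.29 and 11.6 CPM in nuclei. B cells had 219 CPM of Cxcr4 in cells, against 21.2 and 19.3 CPM in nuclei, and the T, NK and innate lymphoid group had 204 CPM in cells, against 22.8 and 19.7 CPM in nuclei. AT2, fitted in the same way, also had more Cxcr4 in cells, by a log2 fold of 3.75 (SE 0.38). Above the AT2 level of its own library, Cxcr4 in monocytes stood at 259 CPM in cells, against 7.89 and 15.5 CPM in nuclei, and in B cells at 143 CPM in cells, against 17.1 and 12.0 CPM in nuclei. General capillary cells were at 5.83 CPM below AT2 in cells, so that their fold is between levels near that of AT2. In 3 types the fold rested more on 1 nucleus library. The log2 fold without nucleus replicate 1 and without nucleus replicate 2 was 2.59 and 4.65 in dendritic cells (3.57 with all libraries), 2.28 and 4.35 in aerocyte capillary cells (3.45) and 2.77 and 4.57 in arterial cells (3.80).

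**Figure D5:**
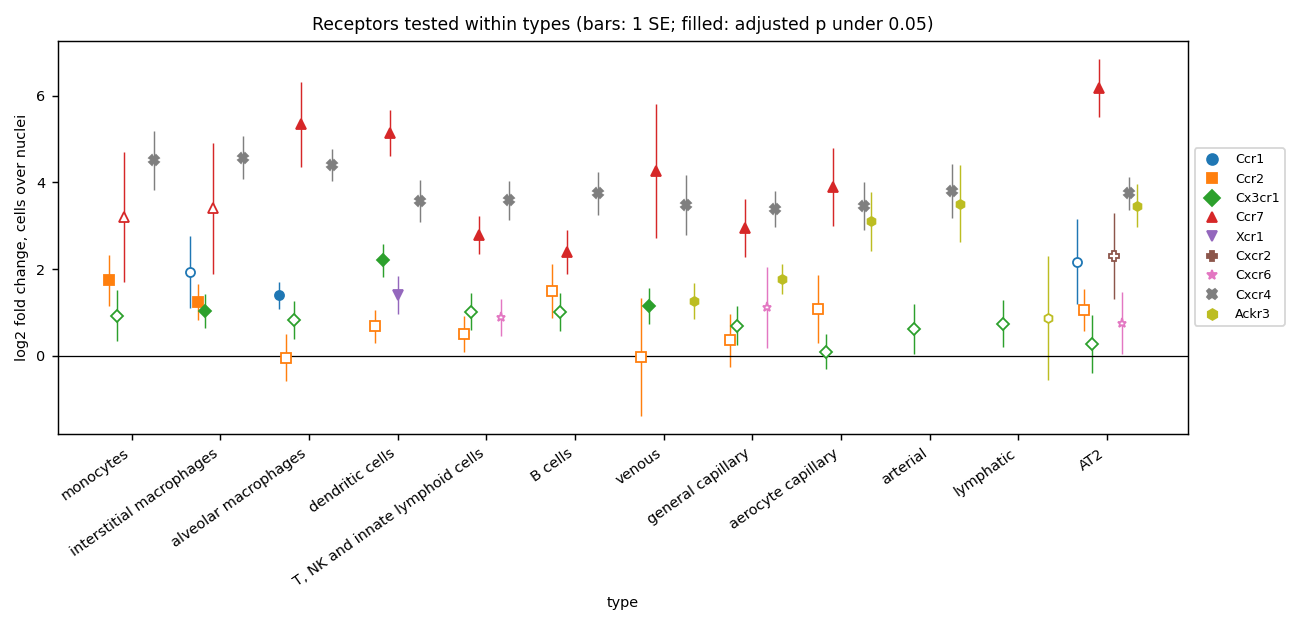
Log2 fold change of each receptor, cells over nuclei, within each type in which it was tested; bars are 1 standard error and filled symbols have an edgeR adjusted p under 0.05. Cxcr4 lies between 3.39 and 4.57 in the 10 types and at 3.75 in AT2, and Ccr2 is filled in monocytes and interstitial macrophages only.

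Ccr7 was called higher in cells in 7 of 9 types tested, of which 3 rest on 1 to 3 UMIs over both nucleus libraries. In the T, NK and innate lymphoid group the log2 fold was 2.78 (SE 0.43, edgeR adjusted p = 6.1e-09), from 121 CPM in cells, against 16.0 and 31.6 CPM in nuclei. In B cells it was 2.39 (SE 0.50) and in dendritic cells 5.15 (SE 0.53), where 208 CPM in cells stood against 2.12 and 14.4 CPM in nuclei. The dendritic fold was 4.05 without nucleus replicate 1 and 5.99 without nucleus replicate 2. Migratory dendritic cells were 66 of 644 dendritic cells, against 2 of 121 and 16 of 152 dendritic nuclei. They held most but not all of the 452 UMIs of Ccr7 in the dendritic cells. Without them the edgeR call was the same, but no UMI of Ccr7 was left in the dendritic nuclei of either replicate, so no fold is given. The other calls, in alveolar macrophages, venous, general capillary and aerocyte capillary cells, were made on levels below that of AT2 in the cell library, and AT2 itself had a log2 fold of 6.18 (SE 0.68), or 4.57 and 5.47 without nucleus replicate 1 and without nucleus replicate 2. In the nuclei general capillary cells lay above AT2, with 1.44 and 4.12 CPM of Ccr7, against 0.170 and 0.756 CPM in AT2, and the other 3 types lay above it in 1 replicate and had no UMI in the other. Both nucleus libraries together held 1 UMI of Ccr7 in alveolar macrophages, 1 in venous and 3 in aerocyte capillary nuclei. The ratio of cells over the pooled nuclei was 32.2 in alveolar macrophages (exact 95% interval of the counts 5.68 to 1284), 21.8 in venous (3.41 to 910) and 17.4 in aerocyte capillary cells (5.61 to 87.3). The fitted log2 fold in alveolar macrophages was 5.34, and 3.32 without nucleus replicate 2. In aerocyte capillary cells it was 3.89, and 2.22 without nucleus replicate 1. In general capillary cells it was 2.95, and 2.07 without nucleus replicate 1, and in venous cells 4.27, and 2.88 without nucleus replicate 1 or 2.49 without nucleus replicate 2.

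Ackr3 was higher in cells in 4 of 5 endothelial types tested. The log2 fold was 1.26 in venous (SE 0.41, edgeR adjusted p = 0.016), 1.77 in general capillary (SE 0.35), 3.11 in aerocyte capillary (SE 0.68) and 3.51 in arterial cells (SE 0.89), against 3.46 in AT2 (SE 0.49). It was 2.31 in aerocyte capillary cells without nucleus replicate 2, and 2.39 in arterial cells without nucleus replicate 1. The type with the highest level of Ackr3 thus had the smallest of the called folds. Above AT2, venous cells stood at 337 CPM in cells, against 155 and 165 CPM in nuclei, and general capillary cells at 56.3 CPM in cells, against 22.8 and 23.3 CPM in nuclei. In lymphatic cells the log2 fold was 0.87 (SE 1.43, edgeR adjusted p = 0.76, unadjusted p = 0.54).

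Ccr2 was called in 2 of 9 types, monocytes at 1.74 (SE 0.59, edgeR adjusted p = 0.040) and interstitial macrophages at 1.24 (SE 0.41, edgeR adjusted p = 0.013), and by DESeq2 in neither. The classical monocyte list, whose cells are high in Ccr2, also differed in the monocytes, with a summed 2788 CPM in cells, against 1078 and 1186 CPM in nuclei, and the non-classical list stood at 1711 CPM in cells, against 2671 and 954 CPM in nuclei. The part of this difference in the fold of Ccr2 was not tested. Nuclei named interstitial macrophages carried more of the classical monocyte list, at 1860 and 1787 CPM, than of their own, at 1330 and 1236 CPM. In the cells of that name the classical list stood at 404 CPM and their own at 8030 CPM. The folds of Ccr2, Cxcr4 and Cx3cr1 under this name compare populations with unlike markers, and the part of this in them was not tested. In dendritic cells the log2 fold of Ccr2 was 0.68 (SE 0.37, edgeR adjusted p = 0.16) and in the T, NK and innate lymphoid group 0.50 (SE 0.41, edgeR adjusted p = 0.41), from 85.8 CPM in cells, against 75.4 and 81.0 CPM in nuclei. Cxcr6 was called in neither type tested, with 0.89 in the T, NK and innate lymphoid group (SE 0.42, edgeR adjusted p = 0.12). Xcr1 was higher in dendritic cells by 1.40 (SE 0.43, edgeR adjusted p = 0.0063), where type 1 made up 224 of 644 cells, against 79 of 121 and 92 of 152 nuclei, and Ccr1 in alveolar macrophages by 1.39 (SE 0.32). Cx3cr1 was called in 3 of 11 types, at 1.03 in interstitial macrophages, 2.20 in dendritic cells and 1.16 in venous cells. Type 2 dendritic cells, the higher kind in Cx3cr1, made up 281 of 644 dendritic cells, against 36 of 121 and 35 of 152 nuclei. Within type 1 Cx3cr1 stood at 250 CPM in cells, against 27.7 and 154 CPM in nuclei, and within type 2 at 537 CPM in cells, against 78.4 and 247 CPM in nuclei. Without nucleus replicate 1 these log2 folds were 0.59, 1.42 and 0.56, and without nucleus replicate 2 they were 1.48, 3.38 and 1.86. DESeq2 called none of the 3.

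The share of members called is read beside that of all genes of the type. It was 3 of 5 in alveolar macrophages, where 26.1% of all genes were higher in cells, 3 of 5 in interstitial macrophages (17.2%), 2 of 4 in monocytes (9.6%) and 4 of 5 in dendritic cells (20.5%). It was 2 of 4 in B cells (10.8%) and 2 of 5 in the T, NK and innate lymphoid group (14.8%). It was 3 of 6 in general capillary cells (13.8%), 3 of 5 in aerocyte capillary cells (17.3%), 2 of 3 in arterial cells (6.51%), 4 of 5 in venous cells (14.1%) and 0 of 2 in lymphatic cells (9.24%). AT2 had 3 of 8, where 21.1% of its genes were higher in cells, and the 3 were Cxcr4, Ccr7 and Ackr3. In B cells none of the 4 other chemokine receptors tested was called, with a median log2 fold of −0.26, by edgeR, and in the T, NK and innate lymphoid group 2 of 6 were higher, also by edgeR.

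Immediate early genes, which respond quickly to stress or stimulation, moved with the same contrast. All 15 were higher in cells over whole libraries, with a median log2 fold of 4.67, such as Fos at 7.75 and Egr1 at 7.59 by edgeR. Their summed level in the tested types lay between 4431 CPM in B cells and 9972 CPM in lymphatic cells of the cell library, against a range from 228 CPM in arterial nuclei of replicate 1 to 719 CPM in monocyte nuclei of replicate 1. The part of this response, and that of transcripts from outside the barcode's own cell, in the folds of Cxcr4, Ccr7 and Ackr3 was not tested.

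Over 21 types of the cell library, the genes whose log2(CPM + 1) was most like that of a member were sought among 15270 genes. For Ackr3 they were Tek (Pearson r = 0.89), the angiopoietin receptor of endothelium, Ntn1 (0.89) and Rhoj (0.88), and over the nucleus types the same pairs gave 0.65, 0.72 and 0.52. For Cxcr6 they were Cd28 (0.92), the co-stimulatory receptor of T cells, Cd8a (0.91) and Txk (0.86), with 0.23, 0.55 and 0.40 over nucleus types. For Xcr1 they were Cd209d (0.86), Gm12159 (0.80) and Apol7c (0.80), with 0.58, 0.73 and 0.78. For Cxcr4 they were Rhog (0.86), Cyp4f18 (0.85) and the leukocyte antigen Ptprc (0.84), with 0.61, 0.47 and 0.73. For Ccr2 they were Cd244a (0.93), Arl5c (0.92) and Gm42674 (0.92), and for Ccr1 Cd300lf (0.95), Cxcl2 (0.90) and Rassf4 (0.87). For Ccr7 they were Jak2 (0.94), Sept6 (0.85) and P2ry10 (0.83), for Cxcr2 Mrgpra2b, Gm34983 and Cyp3a13 (0.80, 0.80 and 0.79) and for Cx3cr1 Kcnk12, Fhad1 and Ankrd66 (0.79, 0.77 and 0.77). Over nucleus types the pairs of Ccr2 gave 0.75, 0.55 and 0.48, and those of Ccr1 0.68, 0.42 and 0.79. Those of Ccr7 gave 0.59, 0.62 and 0.73, and those of Cx3cr1 0.58, 0.46 and 0.58. The pairs of Cxcr2 gave −0.24, 0.63 and −0.017 there, where no neutrophil cluster formed. The points share a library and its depth, so these are descriptions and carry no test.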

How the data were processed

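The deposited tables hold whole-number counts per gene and barcode and were taken as UMI counts. Per the submitters' processing notes, the aligner was STAR 2.5.3a and the build mm10. How reads were counted, on which annotation and whether introns were included is not given in the sources used here. The authors deposited the nuclei in a single table, whose column names tell the libraries apart, per the file headers.

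The members and gene lists were chosen with earlier results of these data known. Genes listed for cells alone (1081) or for nuclei alone (1133) were not used. A barcode needed 400 genes or more and a mitochondrial share below 20%. A doublet caller marked 95 and 218 nuclei, which were removed, and 11 cells (0.0922%), which were kept because so small a share is not a usable call, so that doublets in the cell library were removed only as mixed clusters. Barcodes were clustered by the Leiden method (scanpy 1.11.5, resolution 1, 2000 variable genes, 30 components, 20 neighbours) and named from markers. The thresholds for setting aside mixed clusters were chosen after seeing the data.

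Counts were summed per library and type and given as CPM with exact Poisson 95% intervals. Types are clusters and were not tested against each other. Shares were taken after thinning to 1000 UMIs. Cells were compared with nuclei by edgeR 4.0.16 (TMM, filterByExpr, glmQLFit, R 4.3.3) in types with at least 30 barcodes in every library, with Benjamini-Hochberg adjustment over all genes of a fit, a threshold of 0.05 and 1 residual degree of freedom, so the cell library is assumed to vary like the nuclei. The fits were tested on simulated data in which the cell library was given the same spread as the nuclei, so that assumption was not tested. Alternatives were RLE scaling, DESeq2 1.42.0, no filter, leaving out a nucleus library, a minimum of 800 genes, resolution 2, types gated by each barcode's marker UMIs and thinning to 500 or 2000 UMIs. Added after seeing the data were a fit of AT2 and dendritic cells without migratory ones. The genes named are the 9 members, up to 4 genes of each list with the lowest adjusted p and the 3 genes most like each member among those reaching 10 CPM in a type. A gene that this rule names is not reported here. Ligand levels and the neighbours of Cx3cr1 were named after their values were seen.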

Additional observations from a re-analysis of the deposited data

Results flagged for a closer look

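In types outside the leukocytes and endothelium, the levels of 2 receptors had intervals wholly above 2 times the upper bound of AT2 in the same library. Cx3cr1 stood at 645 CPM in ciliated cells of the cell library, against 456 and 737 CPM in ciliated nuclei of replicates 1 and 2, and at 716 CPM in AT1 nuclei of replicate 2. The transcript that widens its model over other genes is described above, and its part in these values was not tested.

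Ackr3 stood at 114 CPM in adventitial fibroblasts of the cell library, against 49.0 CPM in those of nucleus replicate 1. Nucleus replicate 2 did not meet the rule there, and both replicates pooled gave 36.8 CPM from 15 UMIs. In mesothelial nuclei it stood at 27.6 CPM in replicate 1 and 29.4 CPM in replicate 2. Cxcr4 in pericytes, given above, lay above AT2 by less than this.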

How the results depend on the processing

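Over whole libraries, the 8 members called higher in cells were 8 under RLE scaling, DESeq2, no filter on low counts and a minimum of 800 genes, and the members' median log2 fold lay between 2.33 and 2.87 when a nucleus library was left out. The log2 fold of Cx3cr1 was −0.32 without nucleus replicate 1 and 1.96 without nucleus replicate 2. Within types, DESeq2 called 13 tests higher in cells, in place of 28, with Cxcr4 in 9 types, Ccr7 in 3, Ackr3 in 1 and Ccr2 and Cx3cr1 in 0. Ccr2 was called in 1 type without the filter, in place of 2, where edgeR called no gene in interstitial macrophages (3186 genes at an unadjusted p under 0.05), so that the calls of Cxcr4 and Cx3cr1 there were also lost. At Leiden resolution 2 it was called in 1 type, since monocytes had 28 nuclei in replicate 1 and were not fitted. With types gated by marker UMIs, which left 7 types to fit, Cxcr4 was called in 6 types and Ackr3 in 2. No test was called lower in cells under any of these settings.

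The same gate moved levels in the cell library beyond their intervals. It kept 9 arterial cells, with 1 UMI of Cxcr4. Ccr2 in neutrophils stood at 144 CPM, Ackr3 in aerocyte capillary cells at 17.1 CPM and Ccr7 in B cells at 155 CPM. Ccr7 in dendritic cells stood at 237 CPM, Cx3cr1 in interstitial macrophages at 660 CPM, Cxcr2 in neutrophils at 159 CPM, Cxcr4 in neutrophils at 349 CPM, Ackr3 in venous cells at 511 CPM and Xcr1 in dendritic cells at 113 CPM. The cause was not tested. For each member, the type of the cell library with the highest share was picked, and its interval was set against that of AT2. It lay wholly above for 8 of the 9 members at 500 UMIs, and for 9 at 1000 and 2000 UMIs. Because the type was picked by the share itself, these counts are a description and no support. No paired analysis was possible because no label ties a library to an animal. Depth limits Cxcr2 and Xcr1 most, with 24 and 34 UMIs in nucleus replicate 1, and monocytes rest on 31 nuclei of that library.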
